A study of Mus musculus with 6 samples.

Results

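Marker genes of Kupffer cells and other macrophages were examined in regenerating mouse liver with and without Socs3 in hepatocytes. The list holds 32 genes named by symbol, each read from its brightest probe set that the platform annotation pairs with 1 gene. All 32 were found among the 18193 genes with such a probe set. Of these, 27 passed a filter of a log2 value over 4 on at least 3 of the 6 arrays, and 8554 genes did so in all. By the rule, 6 members stand for resident Kupffer cells (Clec4f, Vsig4, Timd4, Cd5l, Marco and Folr2) and 26 for recruited monocytes, leukocytes at large or macrophages in general.

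Total RNA of whole liver, 2 ug per array, was hybridised to Affymetrix mouse arrays. The livers were taken 18 hours into regrowth, after surgeons had removed the larger share of the organ (partial hepatectomy), and no array before surgery was analysed here. Cre plus livers (n = 3 arrays, A, B and C) came from C57BL/6 mice with Socs3 fl/fl alleles and an Alb-Cre transgene, which the albumin promoter drives in hepatocytes. Cre minus livers (n = 3 arrays, A, B and C) came from Socs3 fl/fl littermates without the transgene. Both groups therefore carry the floxed alleles and had the operation, and the labels give neither age nor sex. Cre acts in hepatocytes, so the cells that the listed genes mark are not its target, and since Cre minus mice carry no Cre, Cre itself and the loss of Socs3 cannot be told apart. The labels do not say that each array comes from its own mouse, so the p-values measure the spread between these arrays, which may be partly technical.

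Kupffer cells are the resident macrophages of the liver and line its sinusoids, where they clear particles, bacteria and aged red cells from portal blood. After partial hepatectomy they are a source of interleukin-6, whose signal through JAK kinases and STAT3 is restrained in hepatocytes by Socs3. Monocytes recruited from blood share many macrophage genes with them and can be told from them by a few surface receptors.

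Values are log2 throughout, group values run in the order A, B, C, and array medians were 2.98 to 3.02. Correlations between arrays, taken across the 8554 genes, were 0.987 to 0.990 within Cre plus, 0.995 within Cre minus and 0.982 to 0.993 between the groups. Socs3 itself was lower on each Cre plus array on all 3 of its probe sets, with a log2 difference of -2.01 ± 0.22 (SE) on the brightest. Of all genes, 2 passed limma's adjusted p under 0.05, which is 0.0234%, and both (Tifa and Steap4) were higher. Hepatocyte genes were among the brightest, as the liver label implies, with albumin (Alb) at 15.27 in Cre plus and 15.31 in Cre minus. Of the 6 resident Kupffer cell genes, Cd5l, Vsig4, Marco and Clec4f were well above the filter, and Timd4 and Folr2 were below it on all 6 arrays.

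Most of the macrophage genes had slightly lower values in Cre plus livers, and none passed the test over all genes. The means of 25 of the 27 tested members were lower in Cre plus and those of 2, Mpeg1 and Coro1a, were higher, where 53.5% of all genes tested had a lower mean. Their median log2 difference, Cre plus minus Cre minus, was -0.26, against -0.01 over all genes. The lowest was Lyz2, at 59.7% of the linear signal in Cre minus livers, and the highest was Mpeg1, at 134%. Their adjusted p-values by limma ran from 0.105, for Tyrobp, to 0.983, for Ccr2, so each is given below as a value and not as a call.

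At an unadjusted p under 0.05, limma listed 8 members as lower, where 8.21% of all genes were listed so, and 1 member (Mpeg1) as higher, where 6.62% were. In 10 members every Cre plus array lay below every Cre minus array, which held for 11.9% of all genes. No member lay wholly above, which held for 9.21%. These members had been named with earlier results of the same arrays known, so the direction of the list is not independent evidence. All 27 tested members were over the filter on all 6 arrays, so none passed it through 1 group alone. RNA from whole liver cannot tell fewer macrophages from less of these transcripts per macrophage.

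**Figure D1:**
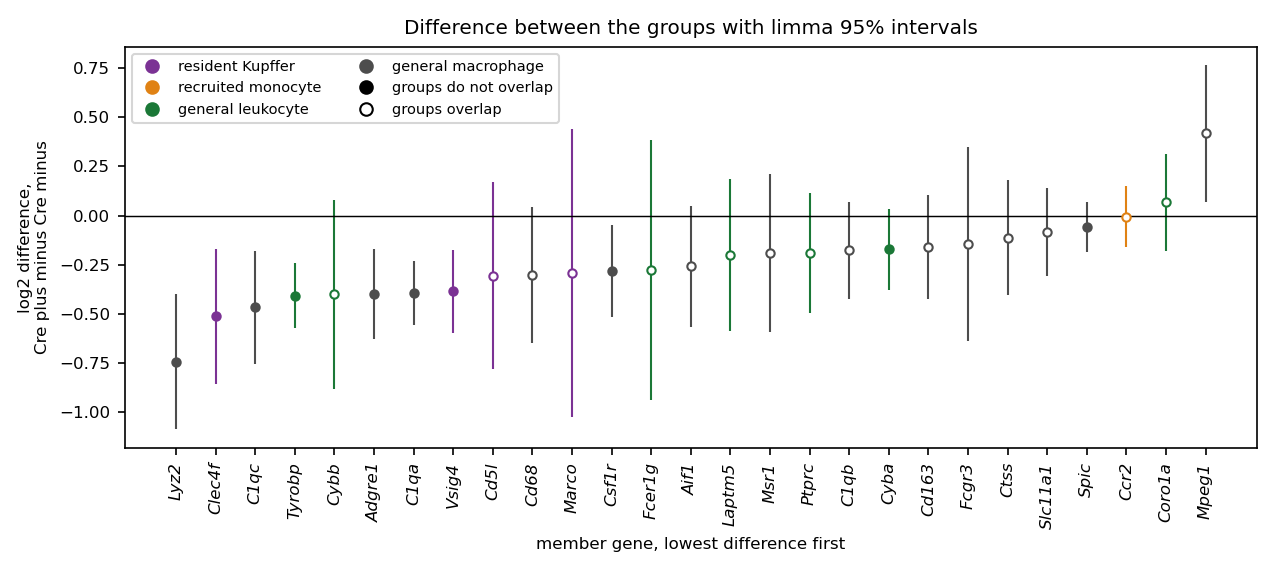
The log2 difference (Cre plus minus Cre minus) of each of the 27 tested members with limma's 95% interval, ordered from the lowest; colour gives the class and a filled point means that the 2 groups of 3 arrays do not overlap. Lyz2 has the lowest value at -0.74, Mpeg1 the highest at 0.42, and 25 of 27 points lie below 0.

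The C1q genes and Vsig4 are among the members with lower values, and the start regions of 3 of them are shown because they hold a short motif that macrophage genes often carry. The transcription factor PU.1 (Spi1), needed for macrophage development, binds sequences with the core GAGGAA. The Spi1 transcript itself was below the filter, at 2.46 to 2.48 on every array, so these arrays carry little signal for it. The members' promoters, 250 bases before to 50 after each start, were taken from RefSeq (GRCm38.p6), which held 27 of the 32. C1qa, Tyrobp, Adgre1, Csf1r and Msr1 had no promoter there, so they were not searched. Both strands were searched for GAGGAA and for the longer GAGGAAGT, which contains it. Capitals mark the matches, and a match on the other strand reads TTCCTC or ACTTCCTC.
C1qc, chr4:136892865-136893164, minus strand: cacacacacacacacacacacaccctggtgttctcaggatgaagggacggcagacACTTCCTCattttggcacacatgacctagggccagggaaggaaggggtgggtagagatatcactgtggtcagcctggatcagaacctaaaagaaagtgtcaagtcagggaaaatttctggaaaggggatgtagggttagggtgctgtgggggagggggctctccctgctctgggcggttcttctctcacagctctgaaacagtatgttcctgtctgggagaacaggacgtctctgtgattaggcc
C1qb, chr4:136886151-136886450, minus strand: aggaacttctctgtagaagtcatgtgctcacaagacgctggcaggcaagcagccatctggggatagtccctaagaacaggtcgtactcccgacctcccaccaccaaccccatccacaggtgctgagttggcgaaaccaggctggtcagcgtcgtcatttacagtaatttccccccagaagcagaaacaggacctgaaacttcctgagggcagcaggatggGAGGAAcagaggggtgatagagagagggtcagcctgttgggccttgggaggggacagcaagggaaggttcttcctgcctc
Vsig4, chrX:96293389-96293688, minus strand: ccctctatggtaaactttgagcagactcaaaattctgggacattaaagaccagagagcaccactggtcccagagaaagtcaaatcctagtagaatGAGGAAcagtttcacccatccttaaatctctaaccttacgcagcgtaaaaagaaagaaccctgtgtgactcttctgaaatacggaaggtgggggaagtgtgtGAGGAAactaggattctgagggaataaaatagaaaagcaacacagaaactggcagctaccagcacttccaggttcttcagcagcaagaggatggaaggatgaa

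The C1qc window holds the longer form on the other strand, with its TTCCTC beginning 193 bases before the start. C1qb holds 1 short match, 30 bases before the start, and Vsig4 holds 2, at 155 and 53 bases. GAGGAA was present in the promoters of 15 of the 27 members (55.6%), against 31.3% of the 27025 genes with a promoter in the table. The longer form was present in 2 (7.41%), C1qc and Ctss, against 3.69% of genes. A match describes letters only, and the promoters of Clec4f, Lyz2 and Mpeg1 held neither form.

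Among resident Kupffer cell genes, Clec4f and Vsig4 had the clearer separation. Clec4f, a C-type lectin found in the mouse on Kupffer cells, had log2 values of 7.55, 7.92 and 7.55 in Cre plus, against 8.37, 8.02 and 8.17 in Cre minus. All 3 Cre plus values were below the lowest Cre minus value, with a gap of 0.099 between the groups. The log2 difference was -0.51 ± 0.14 (SE), with limma's adjusted p = 0.212.

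Vsig4, a receptor for complement fragments that lets Kupffer cells catch circulating bacteria, had 8.89, 8.74 and 8.60 in Cre plus, against 9.14, 9.14 and 9.10 in Cre minus. The groups did not overlap, and the Cre minus arrays lay within 0.045 of each other. Its difference was -0.39 ± 0.09, with limma's adjusted p = 0.169.

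Cd5l and Marco varied more between the Cre plus arrays than between the groups. Cd5l, a protein that tissue macrophages secrete, was the brightest member, with 10.06, 10.60 and 9.94 in Cre plus, against 10.72, 10.43 and 10.37 in Cre minus. Cre plus B lay inside the Cre minus range and the other two below it. The difference was -0.31 ± 0.19, with limma's adjusted p = 0.510, and it was -0.50 without Cre plus B.

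Marco, a scavenger receptor that binds bacteria, had 8.62, 7.47 and 7.69 in Cre plus, against 8.34, 8.15 and 8.16 in Cre minus. Cre plus A was the highest of all 6 arrays and Cre plus B the lowest. The difference was -0.29 ± 0.30, with limma's adjusted p = 0.681, and it ran from -0.64 without Cre plus A to -0.062 without Cre plus B. Its second kept probe set gave -0.38 ± 0.34, again with Cre plus A the highest array.

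Timd4, a receptor for phosphatidylserine on dying cells, lay between 3.30 and 3.33 on every array. Folr2, a folate receptor of tissue macrophages, averaged 3.53 ± 0.03 in Cre plus and 3.63 ± 0.09 in Cre minus (SD, n = 3 each). Neither passed the filter, so these arrays carry little signal for them. The 4 tested resident genes had a median log2 difference of -0.35, and the 23 other tested members a median of -0.19. Over all 32 members without the filter, the medians were -0.30 for the 6 resident genes and -0.18 for the 26 others. The difference between the 2 classes was not tested, and the resident class rests on 4 genes.

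**Figure D2:**
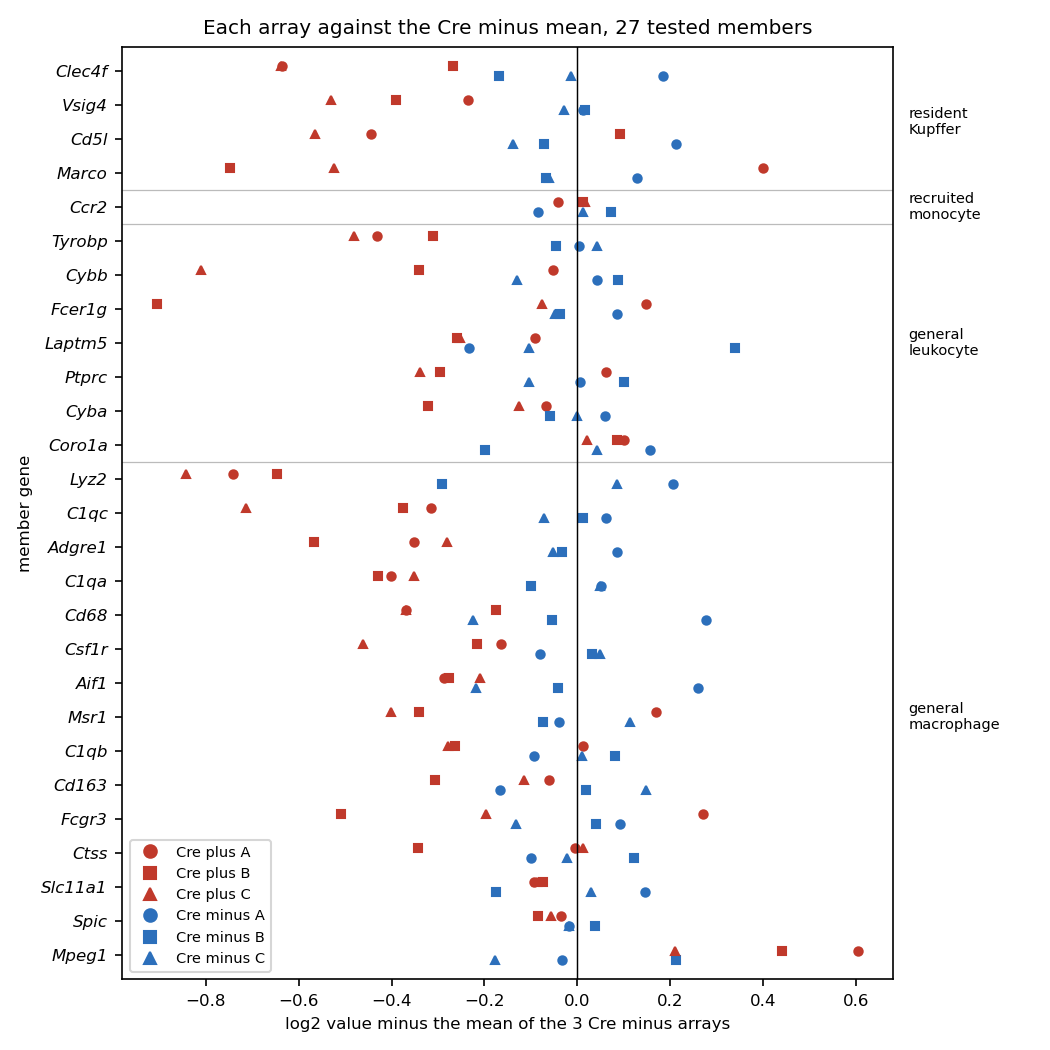
Each array's log2 value minus the mean of the 3 Cre minus arrays, for the 27 tested members grouped by class, with Cre plus arrays in red above Cre minus arrays in blue. Clec4f, Vsig4, Tyrobp, Lyz2, C1qa, C1qc and Adgre1 have all red points left of the blue ones, while Marco, Fcer1g and Fcgr3 have Cre plus A to the right of 0 and Cre plus B far to the left.

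The chains of C1q, which macrophages make in the liver and which start the classical complement pathway, all had lower means in Cre plus. The 3 genes are neighbours on chromosome 4. C1qa had 7.78, 7.75 and 7.83 in Cre plus, against 8.23, 8.08 and 8.23 in Cre minus. The Cre plus arrays lay within 0.077 of each other and below all Cre minus arrays. Its log2 difference was -0.39 ± 0.07, with limma's adjusted p = 0.106.

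C1qc had 7.10, 7.04 and 6.70 in Cre plus, against 7.48, 7.43 and 7.34 in Cre minus. These groups did not overlap either, and the difference was -0.47 ± 0.12 with limma's adjusted p = 0.192. C1qb had 9.26, 8.98 and 8.97 in Cre plus, against 9.15, 9.33 and 9.25 in Cre minus, on its brightest probe set. Cre plus A lay inside the Cre minus range there, and the difference was -0.18 ± 0.10. The other two probe sets of C1qb gave -0.28 ± 0.07 and -0.33 ± 0.08, with no overlap between the groups on either.

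The scavenger receptors Cd163, which takes up haemoglobin bound to haptoglobin, and Msr1, which takes up modified lipoproteins, overlapped between the groups. Cd163 averaged 8.18 ± 0.13 in Cre plus and 8.34 ± 0.16 in Cre minus (SD, n = 3 each). Msr1 averaged 6.14 ± 0.31 in Cre plus and 6.33 ± 0.10 in Cre minus, with Cre plus A above every Cre minus array. Of the 3 kept probe sets of Msr1, the brightest gave -0.19, and the others gave -0.03 and 0.01 and varied by at most 0.10 over the 6 arrays.

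Several activating receptors of macrophages, the Fc receptors among them, signal through adaptors with tyrosine motifs. Tyrobp, an adaptor of such receptors other than the Fc receptors, had 6.29, 6.41 and 6.24 in Cre plus, against 6.72, 6.67 and 6.76 in Cre minus. The groups were 0.27 apart at their nearest, and the spread within each was smaller than that. The log2 difference was -0.41 ± 0.07 (95% interval -0.57 to -0.24), and the adjusted p of 0.105 was the smallest among the members by limma.

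Fcer1g, the gamma chain that several Fc receptors share, had 5.90, 4.85 and 5.67 in Cre plus, against 5.84, 5.71 and 5.70 in Cre minus. Cre plus B was far below the other arrays, and the difference of -0.28 ± 0.27 became 0.035 without it. Fcgr3, a low-affinity receptor for IgG, had 5.35, 4.57 and 4.89 in Cre plus, against 5.17, 5.12 and 4.95 in Cre minus. Cre plus A was again the highest array and Cre plus B the lowest, and the difference of -0.14 ± 0.20 became 0.038 without Cre plus B. The high-affinity receptor Fcgr1 was below the filter, at 2.76 to 2.88 on all arrays.

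Csf1r, the receptor for the growth factor that macrophages need to survive, had 8.92, 8.87 and 8.62 in Cre plus, against 9.001, 9.11 and 9.13 in Cre minus. The groups did not overlap, and the difference was -0.28 ± 0.10 with limma's adjusted p = 0.277. Its other kept probe sets gave -0.33 ± 0.12, without overlap, and -0.26 ± 0.10, with overlap.

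Of the receptors of recruited monocytes, Ccr2 was over the filter and the others were below it. Ccr2, which draws monocytes out of bone marrow, averaged 6.51 ± 0.03 in Cre plus and 6.51 ± 0.08 in Cre minus (SD, n = 3 each), a difference of -0.01 (95% interval -0.16 to 0.15). It rests on 1 probe set that varied by 0.16 over the 6 arrays, while the gene's other 3 probe sets lay between 2.48 and 3.53 on average. The fractalkine receptor Cx3cr1, at 3.19 to 3.26, and the integrin chain Itgam, at 2.45 to 2.46, were below the filter. The arrays carry little signal for Cx3cr1 and Itgam.

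Lyz2, the lysozyme of macrophages and neutrophils, was the lowest of all tested members. Its log2 values were 7.06, 7.15 and 6.96 in Cre plus, against 8.01, 7.51 and 7.89 in Cre minus. All Cre plus arrays were below the lowest Cre minus array. The difference was -0.74 ± 0.14 (95% interval -1.09 to -0.40), with limma's adjusted p = 0.136. Lyz1, a close paralogue, gave -0.40 ± 0.17 and -0.34 ± 0.14 on its 2 brighter probe sets, and cross-binding between the 2 genes was not tested.

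Mpeg1, a pore-forming protein that macrophages use against engulfed bacteria, went the other way. It had 9.08, 8.92 and 8.69 in Cre plus, against 8.44, 8.69 and 8.30 in Cre minus. The groups met at 8.69, so they overlap by Cre plus C and Cre minus B alone. Its difference was 0.42 ± 0.14 (95% interval 0.07 to 0.77), with limma's adjusted p = 0.276. It rests on 1 probe set.

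The other lysosome and phagosome genes differed less. Cd68, a lysosomal glycoprotein, averaged 4.18 ± 0.11 in Cre plus and 4.48 ± 0.25 in Cre minus (SD, n = 3 each), close to the filter. Laptm5, a lysosomal membrane protein of blood cells, averaged 6.49 ± 0.10 in Cre plus and 6.69 ± 0.30 in Cre minus, and its difference of -0.20 became -0.032 without Cre minus B. Laptm5 rests on 1 of its 5 probe sets, and the others lay between 1.84 and 3.46 on average. The protease Ctss averaged 9.81 ± 0.20 in Cre plus and 9.92 ± 0.11 in Cre minus, and its difference of -0.11 became 0.0035 without Cre plus B. Slc11a1, a metal transporter of the phagosome, averaged 6.29 ± 0.01 in Cre plus and 6.38 ± 0.16 in Cre minus.

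The membrane chains of the phagocyte NADPH oxidase, Cybb and Cyba, were both lower in mean. Cybb, the catalytic chain, had 5.18, 4.90 and 4.43 in Cre plus, against 5.28, 5.32 and 5.11 in Cre minus, a difference of -0.40 ± 0.20. Cyba, its partner, had 5.97, 5.72 and 5.91 in Cre plus, against 6.10, 5.98 and 6.04 in Cre minus, a difference of -0.17 ± 0.08. Cyba did not overlap between the groups, with a gap of 0.0098, and Cybb did, through Cre plus A.

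Of the surface and cytoskeletal genes, Adgre1, which encodes the classical mouse macrophage antigen, separated the groups. It had 5.82, 5.61 and 5.89 in Cre plus, against 6.26, 6.14 and 6.12 in Cre minus. The log2 difference was -0.40 ± 0.09, with limma's adjusted p = 0.181. Ptprc, the tyrosine phosphatase found on all white blood cells, averaged 5.44 ± 0.22 in Cre plus and 5.63 ± 0.10 in Cre minus (SD, n = 3 each), and the groups overlapped. Aif1, a calcium-binding protein of macrophages, averaged 4.07 ± 0.04 in Cre plus and 4.32 ± 0.24 in Cre minus. Coro1a, an actin-binding protein of leukocytes, averaged 5.70 ± 0.04 in Cre plus and 5.63 ± 0.18 in Cre minus, and its difference of 0.07 became -0.031 without Cre minus B. Spic, a transcription factor of macrophages that recycle iron, averaged 4.92 ± 0.02 in Cre plus and 4.97 ± 0.03 in Cre minus, and did not overlap while varying by only 0.12 over the 6 arrays.

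**Figure D3:**
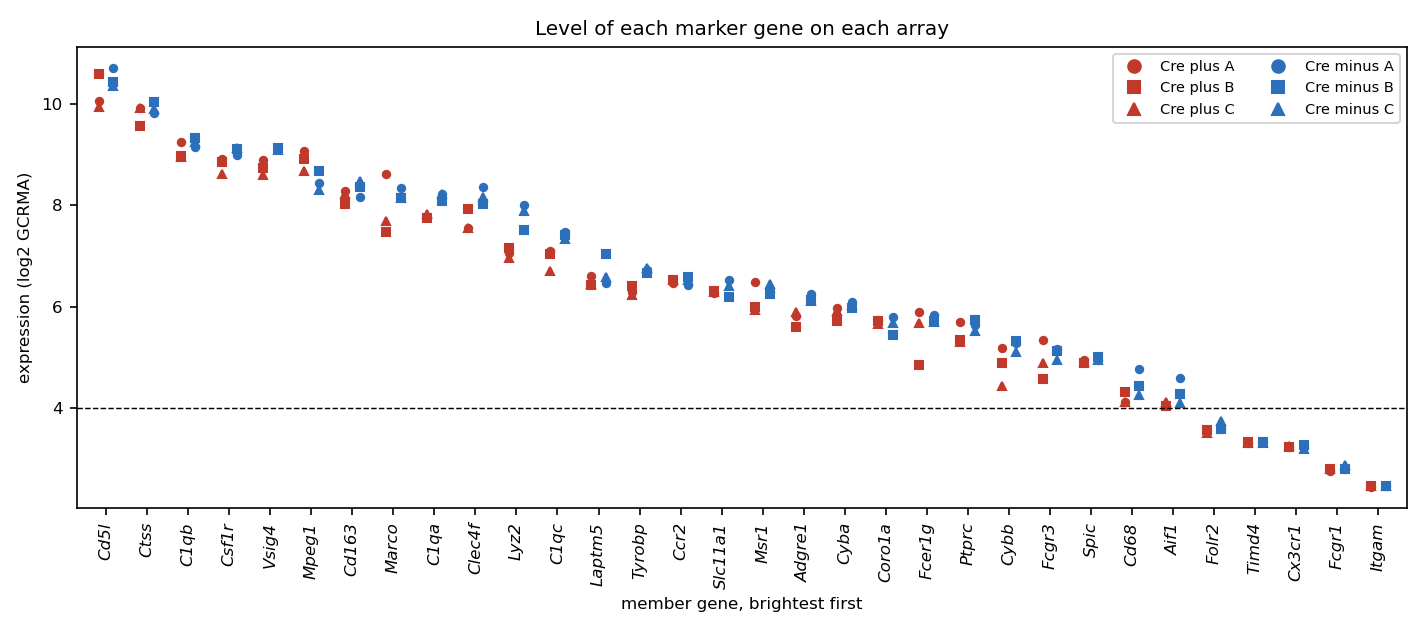
The log2 GCRMA value of each of the 32 members on each array, brightest first, with Cre plus arrays in red to the left of Cre minus arrays in blue; the dashed line is the filter at 4. Cd5l averages 10.35 over the 6 arrays, and Folr2, Timd4, Cx3cr1, Fcgr1 and Itgam lie below the line on every array.

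The Cre plus arrays differed among themselves on these genes. Set against the Cre minus mean, the median shift of the 27 tested members was -0.07, -0.31 and -0.28 for Cre plus A, B and C, while the Cre minus arrays lay between -0.03 and 0.05. Cre plus A was the highest Cre plus array for 16 of the 27 members. The 4 resident genes had median shifts of -0.34, -0.33 and -0.55 and mean shifts of -0.23, -0.33 and -0.56. Their order of Cre plus A and B therefore depends on the measure. The SD was larger in Cre plus than in Cre minus for 17 of the 27. Neither this count nor that of the highest array was made over all genes, so neither is particular to these members. Across all 8554 genes the arrays also correlated less within Cre plus, at 0.987 to 0.990, than within Cre minus, at 0.995.

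The counts depended on Cre plus A. Without it, 14 members had a lower mean at an unadjusted p under 0.05, against 6.91% of all genes, and 18 lay wholly below the Cre minus arrays, against 16.7% of all genes. The members' median was then -0.32, and it was -0.14 without Cre plus B. Without Cre plus A the number past the adjusted threshold was still 0.

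Some genes of neutrophils and monocytes, but not all, were also highest in Cre plus A. Among neutrophil genes, S100a8 had 10.1, 8.19 and 8.54 in Cre plus, against 8.54, 8.39 and 8.44 in Cre minus. Plac8, found in monocytes among other cells, had 7.78, 6.83 and 7.07 in Cre plus, against 6.96, 6.91 and 6.85 in Cre minus. Among the 4 tested monocyte genes, Treml4 was also highest in Cre plus A. Ccl9 and Ace were higher in Cre plus C than in Cre plus A. Cd14, a macrophage receptor for bacterial endotoxin that hepatocytes also make in inflammation, was high in both Cre plus A and Cre plus C. It had 12.4, 6.41 and 11.1 in Cre plus, against 4.89, 6.97 and 7.13 in Cre minus. Of the 18 neutrophil genes listed, 16 were measured and 6 passed the filter, while Mpo, Elane, Camp, Ngp and Ltf were below it on all arrays. The mean level of those 6 was 9.07 to 9.60 in Cre plus and 9.05 to 9.28 in Cre minus. Lcn2, which hepatocytes also make, and Wfdc21 raised that level, averaging 14.8 and 13.7 in both groups. The median shift of those 6 was 0.09, -0.01 and 0.02 in Cre plus. Their part in the values of the macrophage genes was not tested.

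A further list of 46 Kupffer cell and macrophage genes was divided more evenly. Of its 31 tested genes, 15 were higher and 16 lower in mean, with a median of -0.0013, and 0 passed the adjusted threshold. Its brightest gene, Ctsl, averaged 13.2, against 10.4 for Cd5l, the brightest member. Cd14 of this list is also made by hepatocytes. Which cells gave the signals was not tested, for this list or for the members. At an unadjusted p under 0.05, limma listed 3 as lower (9.68%, against 8.21% of all genes) and 1 as higher (where 6.62% of all genes were), which is near the background. The 2 with the smallest p were lower: Hpgd, which breaks down prostaglandins, at -1.12 ± 0.13 and Slc40a1, the iron exporter ferroportin, at -0.85 ± 0.25.

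Sinusoidal endothelial genes, which mark the cells that share the sinusoid with Kupffer cells, also had mostly lower means in Cre plus. Of 17 tested, 14 were lower in mean (82.4%, against 53.5% of all genes), with a median of -0.21 and 0 past the adjusted threshold. At an unadjusted p under 0.05, 6 had lower values (35.3%, against 8.21% of all genes). Fcgr2b, an inhibitory receptor for IgG, had the smallest p with -0.54 ± 0.09, and Ptprb, a phosphatase of vessels, followed with -0.27 ± 0.08. Their median shift was -0.25, -0.06 and -0.29 on Cre plus A, B and C, with Cre plus B nearest to Cre minus. The 4 resident Kupffer cell genes had nearly equal medians in Cre plus A and B, at -0.34 and -0.33. By mean shift, at -0.23 and -0.33, Cre plus A was the nearer for the resident genes. Of 13 stellate cell genes, 7 were higher and 6 lower, with a median of 0.02. Of 16 hepatocyte genes, 6 were higher and 10 lower, with a median of -0.05. The share of these cells in the tissue was not measured, and no difference between the lists was tested.

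**Figure D4:**
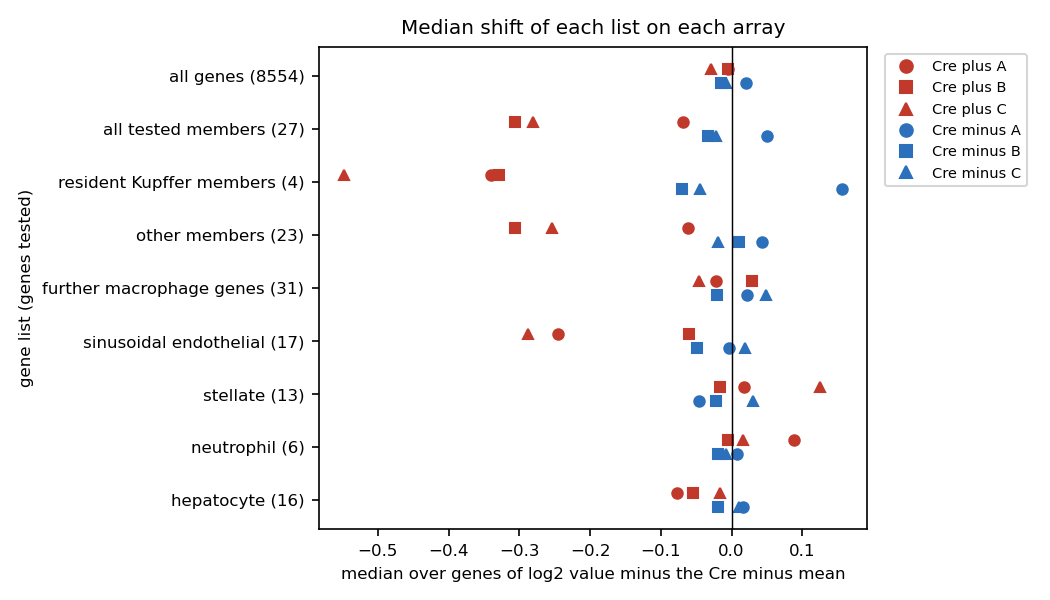
The median over each gene list of the log2 value minus the Cre minus mean, on each array, with Cre plus arrays in red above Cre minus arrays in blue and the number of genes tested in brackets. The resident Kupffer members lie at -0.33 to -0.55 on all 3 Cre plus arrays, the other members at -0.06 in Cre plus A and at -0.31 and -0.25 in the other two, and the further macrophage genes near 0.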

How the data were processed

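The authors deposited log2 expression values that were made with GCRMA, per the submitters' processing notes (its version was not given in the sources used here). GCRMA models background by probe sequence and equalises the arrays' distributions, so values near the bottom of the scale hardly vary and small changes there are compressed. Precision rests on the 3 arrays of each group.

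Of 45101 probe sets, 64 controls were left out, 34958 had 1 symbol, 932 several and 9211 none here. Symbols came from the platform annotation, checked through Entrez IDs against RefSeq (GRCm38.p6), and 0 changed. A gene was read from its brightest kept probe set. Cre plus was compared with Cre minus by limma (version 3.58.1, R 4.3.3) with lmFit and eBayes, without a block, two-sided, with Benjamini-Hochberg adjustment over the 8554 genes tested. Differences are Cre plus minus Cre minus, ± limma's standard error, and group means are ± SD. For 5 members below the filter the values come from all genes without it. Fits were tested on simulated data whose planted changes were larger than every member's difference. That test does not cover changes of the members' size. In addition, 16 alternatives were run (filter, normalization, probe set choice, threshold, block, each array left out).

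The members and lists were chosen with earlier results of these data known. All members are named, and of each other list the 2 genes with the smallest p. Cd14, Lyz1, Alb, Ccl2, Cd3e, Ms4a1, Spi1, Ctsl, Treml4, Ace, S100a9, Prtn3 and Wfdc21 were chosen after their values were seen. So were the neutrophil genes below the filter.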

Additional observations from a re-analysis of the deposited data

How the results depend on the processing

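Under the 16 alternatives, 0 members passed limma's adjusted p under 0.05. Under 0.10 the fit with all arrays and the reported settings listed 0, while Tyrobp (0.0674 without Cre plus B, 0.0719 with the stricter filter, 0.0945 with quantile normalization, 0.0914 with array weights), C1qa (0.0754, 0.0898 and 0.0928 with the last 3 of these settings) and Lyz2 (0.0703 with the stricter filter, 0.0945 with quantile normalization) fell under it. Over all genes, 2 passed, against 0 with no filter, 56 with a stricter filter (log2 over 6), 74 at an adjusted p under 0.10 and 0 to 13 with each array left out. The labels do not say whether the letters A, B and C pair the arrays. Same-letter deviations from the group means correlated at -0.15, -0.10 and 0.02, which shows no sign of pairing, and the fit with the replicate block called 0 genes. With each array left out, the members' median difference ran from -0.32 to -0.14, that of the members outside the resident class from -0.27 to -0.13, the number at an unadjusted p under 0.05 from 8 to 14, the number of lower ones from 7 to 14 (4.52% to 10% of all genes), and the number wholly below from 11 to 18 (14.6% to 21.4% of all genes, against 10 members and 11.9% with all arrays), so the share over all genes without overlap also grows when an array is left out. Of 27 members, 22 kept their direction under every alternative in which they were tested (the stricter filter and the exclusion of shared probe sets dropped some). The other 5 changed sign with an array left out: Ccr2 ran from -0.048 to 0.031 (and was 0.0035 with arrays shifted to a common median), Coro1a from -0.031 to 0.15, Fcer1g from -0.49 to 0.035, Ctss from -0.17 to 0.0035 and Fcgr3 from -0.35 to 0.038. Without the filter, 29 of 32 members were lower in mean, as were 69.5% of all genes, so a lower mean says less there. Signal over background limits the members below the filter: the members' 20 probe sets that were not kept varied over the 6 arrays by a median of 0.037, against 0.55 for the 35 kept.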

Other observations

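Genes of the macrophage environment gave little signal. Of 15 macrophage growth factors and monocyte chemokines, 2 passed the filter, and both overlapped between the groups. Csf1, the growth factor that Csf1r binds, averaged 4.49 ± 0.03 in Cre plus and 4.43 ± 0.08 in Cre minus (SD, n = 3 each), and Csf2ra averaged 4.61 ± 0.25 in Cre plus and 4.74 ± 0.13 in Cre minus. The rest, among them the monocyte attractant Ccl2, were below it. Of 16 genes of the oxidase partners and of signalling below Fc receptors, 2 passed, with differences of -0.12 ± 0.07 for the phosphatase Ptpn6 and 0.04 ± 0.15 for the phosphatase Inpp5d.

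Among 12 further monocyte genes, 4 passed the filter, of which 1 was higher and 3 lower in mean. The chemokine Ccl9 had the smallest p, with 9.71, 9.55 and 9.87 in Cre plus, against 10.09, 9.91 and 10.03 in Cre minus, a difference of -0.30 ± 0.10 and limma's adjusted p = 0.277. Of 10 dendritic cell genes 1 passed, Zbtb46, at -0.21 ± 0.11, and of 8 cholangiocyte genes 1 passed, Sox9, at 0.38 ± 0.23. Of the 20 genes of T and NK cells and the 12 of B and plasma cells, 0 passed, and the brightest averaged 3.66 (Cd3e) and 3.78 (Ms4a1). The 2 neutrophil genes with the smallest p were Lcn2, which hepatocytes also make, at 0.07 ± 0.05 and S100a8 at 0.49 ± 0.49. In the stellate cell list they were Rgs5 at 0.50 ± 0.11 and Pdgfra at 0.47 ± 0.16, both higher in all 3 Cre plus arrays than in any Cre minus array, and in the hepatocyte list Cps1 at -0.50 ± 0.18 and Apoa1 at -0.16 ± 0.07.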
